A study of Homo sapiens with 8 samples.

Results

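The comparison described here sets 2 guide RNAs against each other that were aimed at the same gene, IRF2, in the same cells. It rests on 4 of the 8 RNA-seq libraries of the study, 2 with the guide sg1-IRF2 and 2 with the guide sg2-IRF2. Genes were taken where the deposited log2 value averaged 0 or more over all 8 libraries, which kept 14665 of the 35805 genes listed. The cells were K562, a human erythroleukaemia line, carrying dCas9-KRAB, a Cas9 that cannot cut DNA joined to a repressor domain that silences the promoter a guide leads it to. All groups share dCas9-KRAB. The other groups, 2 libraries each, were cells that received no guide (untransduced) and cells with sgAAVS1, a guide to the AAVS1 site used as a negative control. RNA of the sgAAVS1, sg1-IRF2 and sg2-IRF2 cells was taken 7 days after transduction, and no day is given for the untransduced cells. The names of the guides are those of the labels. The question was which genes follow how deeply IRF2 was silenced, and which differ between the guides without following it.

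IRF2 is an interferon regulatory factor. It binds short GAAA-rich elements in the promoters of genes for antiviral defence and for loading peptides onto MHC class I, where it can act as a repressor or as an activator, and it shares these elements with its relative IRF1. Guides to the same gene can silence it to different depths. Metallothioneins are small cysteine-rich proteins that bind zinc and copper, and the factor MTF1 switches their genes on through metal response elements. Genes of glycolysis and of the response to low oxygen are switched on by HIF factors, and genes that import or make amino acids by ATF4.

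Promoters of the genes that fell with IRF2 and lay lower with sg1-IRF2 are shown first, for the interferon response element that IRF2 is known to bind. The sequences are from RefSeq (GRCh38.p14), run 5′ to 3′ on the strand of the gene and end before the start site RefSeq gives. The interferon response element was searched as GAAA, any pair of bases and GAAA again, on both strands, in windows of 300 bases, from 250 before to 50 after the start. Capitals mark its matches.
C19orf66 (chr19:10086239-10086316, plus strand): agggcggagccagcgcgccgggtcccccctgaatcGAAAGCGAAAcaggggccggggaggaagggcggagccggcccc
IFI6 (chr1:27672272-27672351, minus strand): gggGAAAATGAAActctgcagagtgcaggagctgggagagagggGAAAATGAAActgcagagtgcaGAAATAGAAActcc
TAP2 (chr6:32838753-32838832, minus strand): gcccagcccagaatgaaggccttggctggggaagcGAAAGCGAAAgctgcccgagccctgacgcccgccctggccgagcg
PARP12 (chr7:140062952-140062996, minus strand): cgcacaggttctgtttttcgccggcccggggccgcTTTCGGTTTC
OAS3 (chr12:112938327-112938473, plus strand): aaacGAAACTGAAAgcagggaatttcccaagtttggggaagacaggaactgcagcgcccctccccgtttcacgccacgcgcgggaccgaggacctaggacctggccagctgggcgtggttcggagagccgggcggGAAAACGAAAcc

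Of the 17 genes that followed the depth of knockdown, by the rule given below, 12 were matched to a RefSeq promoter and 7 of these 12 held the element. Without the genes of the metal response list it was 7 of 9, with DTX3L and FAM111A beside those printed. It was present in 2.74% of the 10448 promoters of tested genes and in 3.65% of the 27305 promoters in the table. Among genes lowered at least 2-fold by the IRF2 guides, 18 of 31 matched promoters held it. A match is a description of these letters and not a measured binding site.

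The metal response element was searched as TGCACNC or TGCGCNC on both strands and is marked in the promoters of a pair of metallothionein genes. Where its variable base gives TGCACGC it also holds the hypoxia core GCGTG on the other strand. It was present in 38.7% of tested promoters and in 10 of the 12 matched promoters of genes that followed the depth, 7 of them outside the metal response list, so it does not set the metallothionein genes apart. The stretch of MT1X shown holds 4 matches and that of MT2A 7.
MT1X (chr16:56682307-56682436, plus strand): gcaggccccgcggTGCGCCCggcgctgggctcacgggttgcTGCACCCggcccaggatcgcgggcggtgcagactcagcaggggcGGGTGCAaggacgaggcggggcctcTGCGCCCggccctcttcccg
MT2A (chr16:56608336-56608583, plus strand): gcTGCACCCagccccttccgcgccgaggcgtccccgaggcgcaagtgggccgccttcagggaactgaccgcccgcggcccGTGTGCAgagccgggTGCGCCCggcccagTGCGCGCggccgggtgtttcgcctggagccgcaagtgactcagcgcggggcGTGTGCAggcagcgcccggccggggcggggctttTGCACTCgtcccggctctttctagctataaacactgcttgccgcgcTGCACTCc

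Reads over the listed genes ran from 5248359 to 6738348 per library, with 5748809 and 6394922 for sg1-IRF2 and 6440681 and 6122710 for sg2-IRF2. The erythroid markers GATA1 (673 to 763 reads) and HBG1 (451 to 482 reads) were present in all 8 libraries, and the megakaryocyte markers PF4, PPBP and GP9 and the lymphoid markers CD2 and MS4A1 had 0 reads. The myeloid gene SPI1 (412 to 520 reads) was also present in all 8. Libraries of different groups were nearly as alike as replicates in some cases. Counted reads of library pairs were set against counting noise, which gives a chi-square per degree of freedom of 1. This value was 0.777 between the sg1-IRF2 libraries, 0.644 between the sg2-IRF2 libraries, 0.818 between the untransduced libraries and 1.69 between the sgAAVS1 libraries. It lay between 1.28 and 1.58 for sg1-IRF2 against sg2-IRF2, but between 1.13 and 1.33 for sg2-IRF2 against untransduced cells, and at 1.11 and 1.24 for sgAAVS1 against the sg1-IRF2 library of the same number. The differently numbered pairs of these groups gave 1.58 and 1.74. Separate cultures are not named in the labels for libraries of a group, so p-values here measure a spread that may be technical. The sg1-IRF2, sg2-IRF2 and untransduced pairs lay below 1, so these replicates scattered less than counting noise alone would give. The p-values can therefore be too low, and the cause of the small scatter was not tested. In bulk RNA, fewer cells of a kind and less RNA per cell cannot be told apart.

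Between the guides 231 genes were called at an adjusted p under 0.05 (limma moderated test, 1.58% of those tested), 145 lower (0.989%) and 86 higher (0.586%) with sg1-IRF2. Differences were mostly small, with a median size of 0.33 on the log2 scale, where 1 is a doubling, and 15 called genes passed 2-fold, 14 lower and 1 higher. Before alignment the tested genes had a median 0.11 higher with sg1-IRF2 (5.66 against 5.54), and every difference here is relative to that shift. As deposited, without the alignment, 93 genes were called lower and 1859 higher. The libraries of the 2 guides did not overlap for all 231 called genes, but they also did not overlap for 47.1% of all tested genes. The count without 1 library was 122 without either untransduced library, 700 and 703 without sgAAVS1 replicate 1 or 2, 75 and 67 without sg1-IRF2 replicate 1 or 2, and 54 and 36 without sg2-IRF2 replicate 1 or 2.

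IRF2 itself was lower with sg1-IRF2. On the aligned log2 scale its value was 5.62 and 5.58 in the untransduced libraries, 5.43 and 5.61 under sgAAVS1, 1.96 and 1.99 under sg2-IRF2, and -0.32 and 0.50 under sg1-IRF2. All 4 guide libraries lay far below the controls, and both sg1-IRF2 libraries lay below both sg2-IRF2 libraries. The gene lies on chromosome 4 (184387713 to 184474580, minus strand, hg38). The difference between the guides was -1.88 ± 0.21 (SE, n = 2 per group, adjusted p = 0.000104), and against the mean of the controls IRF2 stood at -5.47 under sg1-IRF2 and -3.59 under sg2-IRF2. The reads behind them numbered 4 and 8 under sg1-IRF2 and 22 and 21 under sg2-IRF2, a ratio of 3.46 between the guides with a 95% counting interval of 1.79 to 7.22. Such intervals hold counting error alone, as no molecular identifiers are named in the labels. On the log2 scale this counting interval is wider than the fitted standard error of 0.21 implies. For genes with few reads, the standard errors and adjusted p of the fit can therefore understate the error. Of the 20 tested genes within 2 Mb of IRF2, 1 was called between the guides, the fatty acid hydroxylase gene CYP4V2 (0.52 ± 0.13, adjusted p = 0.0428), which lost its call without either untransduced library, without either sg1-IRF2 library or without sg2-IRF2 replicate 2.

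A gene was counted as following the depth of knockdown where it was called between the guides, was called with the same sign in both guides against both control groups (1.43% of tested genes were called there), and had its sg2-IRF2 mean between the sg1-IRF2 mean and the control mean. The guide comparison and the comparison of both guides with the controls are orthogonal contrasts, but both hold the sg1-IRF2 libraries. A fall under sg1-IRF2 alone can therefore meet both, and the rule asks for no call of sg2-IRF2 against the controls. The rule held for 17 genes, 7.36% of those called, and all 17 lay lower with sg1-IRF2. Against the controls sg1-IRF2 had a median of -2.19 and sg2-IRF2 of -1.13, and the median guide difference was -0.93. Called alone against the controls, sg2-IRF2 reached the threshold in 9 of the 17 (in that comparison 1.56% of all tested genes were called, 0.996% lower and 0.566% higher, and for sg1-IRF2 against the controls 1.59%, 1.06% lower and 0.525% higher), IRF2 and 8 genes of interferon response, antigen loading and antiviral defence. The other 8 did not, and these were the metallothionein genes and a few others. For these 8 a fall with sg2-IRF2 was not shown at the threshold. The 17 became 10 and 8 without untransduced replicate 1 or 2, 38 and 30 without sgAAVS1 replicate 1 or 2, 10 without sg1-IRF2 replicate 2, and 6 without either sg2-IRF2 library. By voom 7 of the 17 were called between the guides.

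**Figure D1:**
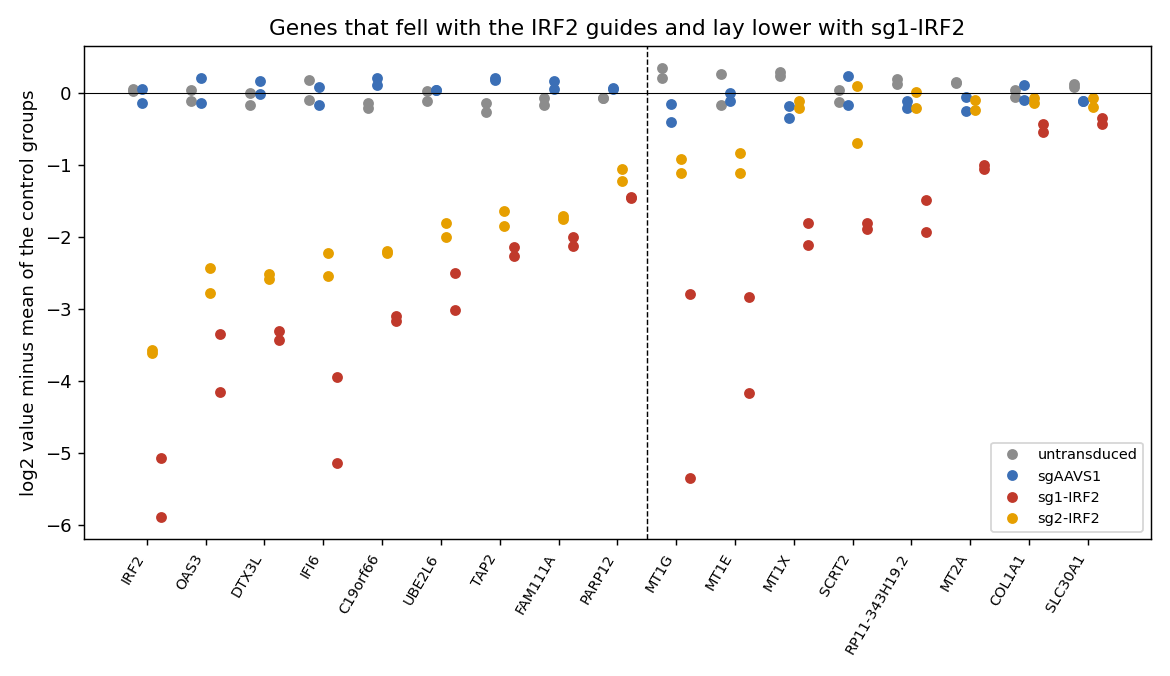
Aligned log2 value minus the mean of the control groups for the 17 genes that followed the depth of knockdown, 1 point per library, colour by group. Left of the dashed line are the 9 genes also called with sg2-IRF2 alone against the controls, where sg2-IRF2 points lie between the controls and sg1-IRF2, and right of it the 8 that were not, where the sg2-IRF2 points of MT1X lie among the control points and those of MT1G and MT1E below them. The rule that chose the genes asks for an sg2-IRF2 mean between those of sg1-IRF2 and the controls, so that order is given by the choice.

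DTX3L, a ubiquitin ligase that works with PARP9 in antiviral defence, had the lowest p of the interferon genes called. Its aligned log2 value was 5.88 and 5.72 in the untransduced libraries, 5.88 and 6.05 under sgAAVS1, 3.31 and 3.38 under sg2-IRF2, and 2.59 and 2.45 under sg1-IRF2. The 3 levels did not overlap. The guide difference was -0.82 ± 0.11 (adjusted p = 0.000535), which is 1.77-fold, and the falls from the controls were -3.36 under sg1-IRF2 and -2.54 under sg2-IRF2. DTX3L is on chromosome 3 (122564238 to 122575203, plus strand) and overlaps PARP9 on the opposite strand; the strand setting of the counting is not known.

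UBE2L6, the conjugating enzyme for the ubiquitin-like protein ISG15, stood at 4.98 and 5.11 in the untransduced libraries, 5.12 and 5.13 under sgAAVS1, 3.28 and 3.09 under sg2-IRF2, and 2.59 and 2.08 under sg1-IRF2. The sg1-IRF2 libraries were the lowest pair. Its guide difference was -0.85 ± 0.15 (adjusted p = 0.00627), and no interferon response element of the form searched was in its window. C19orf66, an antiviral protein that blocks programmed ribosomal frameshifting, stood at 4.16 and 4.23, 4.58 and 4.48, 2.14 and 2.18, and 1.27 and 1.20 in the same order of groups. Both guides were below the controls and sg1-IRF2 was below sg2-IRF2, by -0.93 ± 0.18 (adjusted p = 0.00891). C19orf66 overlaps ANGPTL6 on the opposite strand.

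IFI6, an interferon-induced protein of the endoplasmic reticulum and mitochondria whose printed promoter holds 3 elements, had the largest guide difference of the interferon genes called, -2.15 ± 0.44 (adjusted p = 0.015). It rests on few reads, 2 and 1 under sg1-IRF2 and 6 and 7 under sg2-IRF2, against 25 to 39 in the control libraries. The read ratio between the guides was 4.19 with a counting interval of 1.15 to 22.9. OAS3, an oligoadenylate synthetase that senses double-stranded RNA, had 4 and 8 reads under sg1-IRF2 and 15 and 11 under sg2-IRF2, against 59 to 98 in the controls. Its guide difference was -1.14 ± 0.28 (adjusted p = 0.0475), and its read ratio of 2.09 had an interval from 1.02 to 4.56. Neither gene gives a firm size for the guide difference at this depth.

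TAP2, a subunit of the transporter that carries peptides to MHC class I, was well covered. Its value was 5.66 and 5.53 in the untransduced libraries, 6.01 and 5.98 under sgAAVS1, 4.16 and 3.95 under sg2-IRF2, and 3.54 and 3.67 under sg1-IRF2. The guides differed by -0.45 ± 0.10 (adjusted p = 0.0238), after falls of -2.19 and -1.74 from the controls. TAP2 was also the 1 called gene that was called with the opposite sign between the controls, with sgAAVS1 above untransduced cells by 0.40 (adjusted p = 0.0256). PARP12, a mono-ADP-ribosyltransferase, differed by -0.32 ± 0.07 (adjusted p = 0.0365), with 4.70 and 4.72 for sg1-IRF2 and 4.94 and 5.11 for sg2-IRF2 against 6.08 to 6.23 in the controls. FAM111A, a protease that restricts viruses and protects replication forks, differed by -0.34 ± 0.08 (adjusted p = 0.0367), with 4.09 and 4.21 for sg1-IRF2 and 4.47 and 4.51 for sg2-IRF2 against 6.05 to 6.39. For these 3 genes the step from the controls to either guide was several times the step between the guides.

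The calls within this group depended on single libraries. IRF2 and DTX3L stayed called without each of the 8 libraries in turn, with a highest adjusted p of 0.0045 and 0.0197. UBE2L6 stayed called in 6 of 8 such fits (lost on leaving out sg1-IRF2 replicate 2 or replicate 1 of sg2-IRF2), and C19orf66 in 5 of 8 (lost without sg1-IRF2 replicate 2 or either sg2-IRF2 library). IFI6 stayed called in 3 of 8 and OAS3 in 3 of 8, and TAP2, PARP12 and FAM111A in 2 of 8, with the fits without an sgAAVS1 library holding each of these 5 calls. IFI6 was also called without sg1-IRF2 replicate 1, and OAS3 without sg1-IRF2 replicate 2. With voom, a limma fit that weights the recovered reads by their precision, IRF2 stayed called (adjusted p = 0.029), but none of the 8 interferon and antigen loading genes did. Their adjusted p by voom was 0.0829 for DTX3L, 0.0632 for UBE2L6, 0.0638 for IFI6, 0.105 for PARP12, 0.137 for C19orf66, 0.148 for TAP2, 0.197 for FAM111A and 0.267 for OAS3. All 8 differences stayed below 0, from -0.31 to -1.80.

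The metallothionein genes MT1X, MT2A, MT1G and MT1E were lower under sg1-IRF2 than under the other guide, and none of these 4 was called with sg2-IRF2 alone against the controls. MT1X stood at 4.84 and 4.79 in the untransduced libraries, 4.20 and 4.37 under sgAAVS1, 4.44 and 4.35 under sg2-IRF2, and 2.44 and 2.75 under sg1-IRF2. The sg2-IRF2 libraries lay among the controls and the sg1-IRF2 libraries below all others. The guide difference was -1.80 ± 0.13 (adjusted p = 5.9e-07), the lowest p of all genes, and is 3.49-fold. Against the controls MT1X stood at -1.96 under sg1-IRF2 and at -0.15 under sg2-IRF2, the latter with a 95% interval from -0.40 to 0.09. It was also lower with sgAAVS1 than in untransduced cells, by -0.53 (adjusted p = 0.0292).

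MT2A gave 5.12 and 5.14, 4.93 and 4.73, 4.75 and 4.89, and 3.93 and 3.99 in untransduced, sgAAVS1, sg2-IRF2 and sg1-IRF2 libraries. The sg1-IRF2 libraries again stood alone, by -0.86 ± 0.10 from sg2-IRF2 (adjusted p = 0.000174), while sg2-IRF2 was at -0.16 against the controls with an interval from -0.35 to 0.02. MT1G had 0 and 6 reads under sg1-IRF2 and 22 and 18 under sg2-IRF2, against 30 to 52 in the controls. Its read ratio of 6.44 had a counting interval of 2.71 to 18.6, and the guide difference was called (adjusted p = 0.00302). MT1E had 2 and 0 reads against 9 and 7, a ratio of 7.73 with an interval of 1.82 to 69.3 (adjusted p = 0.0167), and 12 to 19 reads in the controls. In MT1G and MT1E both sg2-IRF2 libraries had fewer reads than any control library, and sg2-IRF2 stood at -1.01 (adjusted p = 0.385) and -0.97 (adjusted p = 0.433) against the controls. The transcript RP11-343H19.2 lies over MT1X on the same strand (chromosome 16, 56682470 to 56687807) and differed by -1.61 ± 0.22 (adjusted p = 0.000519), so the reads of both may be shared.

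SLC30A1, the zinc exporter of the plasma membrane, was lower by -0.26 ± 0.05 (adjusted p = 0.0183). It was also lower with sgAAVS1 than in untransduced cells, by -0.22 (adjusted p = 0.0284). Of the 8 tested genes of the metallothionein and metal response list 5 were called lower with sg1-IRF2 and 0 higher. Over all tested genes 0.989% were called lower. The median was -0.56 against 0.00016 over all tested genes. The metallothionein genes lie close together on chromosome 16 and are near-identical in sequence, so reads may be split among them. MT1X, MT2A and RP11-343H19.2 kept their call without each library in turn. MT1G lost it without either sg2-IRF2 library, MT1E without untransduced replicate 2, sg1-IRF2 replicate 2 or either sg2-IRF2 library, and SLC30A1 in 5 of the 8 fits. SLC30A1 was held in those without an sgAAVS1 library and without sg2-IRF2 replicate 1. All 6 of these genes stayed called by voom, with adjusted p from 0.000129 (MT1X) to 0.0205 (SLC30A1).

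The last 2 of the 17 were SCRT2, a zinc finger repressor of neuronal development, and COL1A1, a chain of fibrillar collagen. SCRT2 had 5 and 6 reads under sg1-IRF2, 13 and 21 under sg2-IRF2 and 15 to 26 in the controls (-1.55 ± 0.36, adjusted p = 0.0325). COL1A1 stood at 4.89 and 5.0 under sg1-IRF2, 5.36 and 5.29 under sg2-IRF2 and 5.33 to 5.54 in the controls (-0.38 ± 0.09, adjusted p = 0.0302). In both genes sg2-IRF2 lay close to the controls. COL1A1 was the 1 called member of 8 tested genes of adherent lines. Both genes kept their call in 2 of the 8 fits without 1 library, those without an sgAAVS1 library, and COL1A1 was not called as deposited without the alignment (-0.27, adjusted p = 0.0556). Neither was called by voom (adjusted p = 0.052 and 0.0888 for COL1A1 and SCRT2).

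In both guides against both control groups 159 genes were called lower (1.08% of those tested). Of these, 18 were lower and 1 higher with sg1-IRF2 than with sg2-IRF2, 11.9% called against 1.58% of all tested genes, and their median guide difference was -0.05, with -0.46 for sg1-IRF2 and -0.42 for sg2-IRF2 against the controls. The set was then split at a 2-fold fall. Of the 43 genes lowered at least 2-fold, 13 were called lower and 0 higher (30.2%), 81.4% had a difference below 0, and the median was -0.34. Of the 116 lowered by less, 5 were lower and 1 higher, with a median of -0.01. Of the 50 genes raised by the guides (0.341% of those tested), 2 were lower and 1 higher with sg1-IRF2. The 18 became 10 and 8 without untransduced replicate 1 or 2, 36 without sgAAVS1 replicate 1, 10 without sg1-IRF2 replicate 2, and 7 and 6 without sg2-IRF2 replicate 1 or 2.

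**Figure D2:**
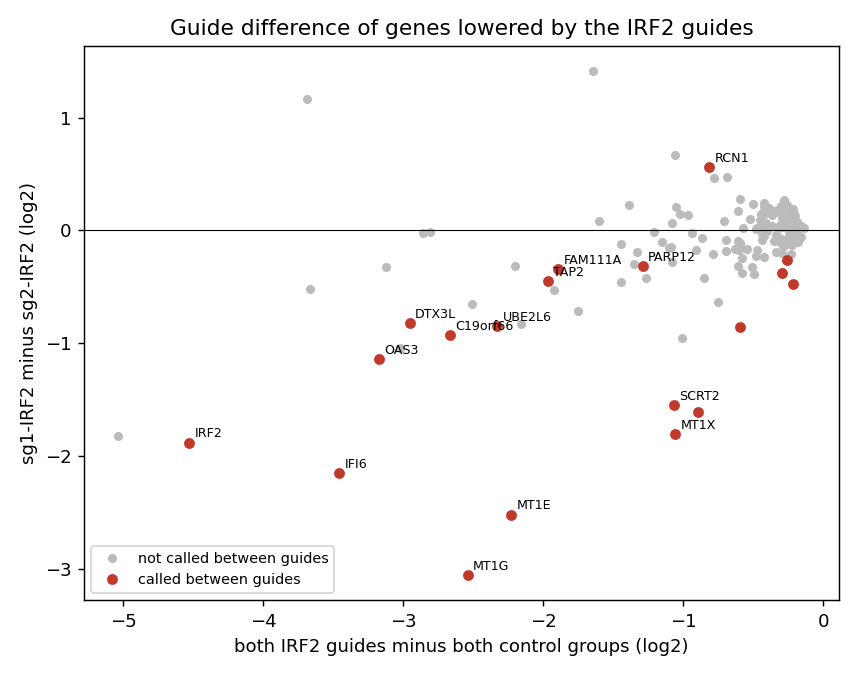
For the 159 genes lowered by the IRF2 guides, the log2 difference of both guides from both control groups (horizontal) against the log2 difference between sg1-IRF2 and sg2-IRF2 (vertical), 1 point per gene. Called genes, in red, lie below the line at 0 except RCN1, and many genes near the right edge lie around 0.

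Several genes with falls as large as that of DTX3L were not called between the guides. TAP1, the partner of TAP2, had 6 and 6 reads under sg1-IRF2 and 10 and 6 under sg2-IRF2, against 52 to 76 in the controls, a difference of -0.33 with an interval from -0.93 to 0.28 (adjusted p = 0.696). ERAP2, which shortens peptides for display on MHC class I, had 4 and 4 reads against 7 and 5 (-0.52, interval -1.16 to 0.12). LGALS3BP, a secreted glycoprotein, had 0 and 1 reads against 2 and 6 and missed the threshold (-1.83, interval -2.81 to -0.84, adjusted p = 0.0564). UBA7, the activating enzyme for ISG15, had 6 and 4 reads against 12 and 9 (-1.04, interval -1.67 to -0.42, adjusted p = 0.0964). The intervals of TAP1 and ERAP2 hold both 0 and the difference of DTX3L, so a step of that size was neither shown nor excluded for them. LGALS3BP was called without either sgAAVS1 library or without sg2-IRF2 replicate 1 (-2.67, adjusted p = 0.00782), and UBA7 without sg1-IRF2 replicate 1 (-1.43, adjusted p = 0.049).

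ERAP1, PARP9 and APOL6 were not called either. ERAP1, the partner of ERAP2, was covered better and stood at 5.07 and 5.05 under sg1-IRF2 and 5.28 and 5.22 under sg2-IRF2. The difference was -0.19 with an interval from -0.34 to -0.05 (adjusted p = 0.21). PARP9 gave -0.31 with an interval from -0.67 to 0.04. APOL6, an apolipoprotein L, pointed the other way but on few reads, 13 and 12 for sg1-IRF2 and 3 and 11 for sg2-IRF2 (1.16, adjusted p = 0.169). Without sg2-IRF2 replicate 2 it was called higher with sg1-IRF2 (2.15, adjusted p = 0.00268), and also without either sgAAVS1 library.

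By list, 6 of 49 tested interferon-stimulated genes were called lower with sg1-IRF2 and 0 higher, with a median difference of 0.0017. Over all tested genes 0.989% were called lower and 0.586% higher. In both guides against the controls 24 of the 49 were called lower and 2 higher (1.08% and 0.341% of all tested genes). Of 16 tested genes for antigen processing, 1 was called lower, TAP2, with 15 of the 16 below 0 and a median of -0.24, and 10 were called lower with both guides against the controls. As deposited, without the alignment, 7 interferon-stimulated genes were called lower and 5 higher, beside 93 lower and 1859 higher over all tested genes. By voom 0 were called, with 12 lower and 3 higher at an unadjusted p under 0.05. The 6 lower calls became 3 without either untransduced library, 8 without either sgAAVS1 library, 5 and 2 without sg1-IRF2 replicate 1 or 2, and 2 without either sg2-IRF2 library.

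RCN1, which encodes a calcium-binding protein of the secretory pathway, went against the depth of knockdown. Its value was 4.62 and 4.74 in the untransduced libraries, 4.80 and 4.95 under sgAAVS1, 4.22 and 4.27 under sg1-IRF2, and 3.67 and 3.70 under sg2-IRF2. It was thus lowest with the weaker guide, by 0.56 ± 0.11 (adjusted p = 0.0119). SLC6A8, the creatine transporter, and PNCK, a calmodulin-dependent kinase gene that overlaps it on the opposite strand of chromosome X, were higher with both guides than with the mean of the controls but lower under sg1-IRF2 than sg2-IRF2 (-0.32 ± 0.06 and -0.44 ± 0.08). Both were low with sgAAVS1. PNCK gave 6.71 and 6.73 in the untransduced libraries, 5.48 and 5.23 under sgAAVS1, 6.34 and 6.22 under sg1-IRF2, and 6.65 and 6.79 under sg2-IRF2. RCN1 lost its call without each of the 4 guide libraries, and SLC6A8 and PNCK on leaving out the replicate 2 library of either guide.

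Most of the other 214 called genes had the same sign between the guides as between the control groups. The comparison of sgAAVS1 with untransduced cells shares no library with the guide comparison, and 648 genes were called in it (4.42%), 346 lower (2.36%) and 302 higher (2.06%). Of the 214 genes, 210 (98.1%) had the same sign in both comparisons, against 66.2% of all tested genes. Of all 231 called genes, 114 were also called with the same sign between the controls, 85 lower and 29 higher. They are 49.4% of the guide list and 17.6% of the control list. Across genes the correlation of the differences was 0.24 over all tested genes and 0.62 over the called ones, given as a description since genes of 1 library share its errors. The 114 became 33 and 25 without untransduced replicate 1 or 2, 285 and 248 without sgAAVS1 replicate 1 or 2, 41 and 39 without sg1-IRF2 replicate 1 or 2, and 24 and 16 without sg2-IRF2 replicate 1 or 2.

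**Figure D3:**
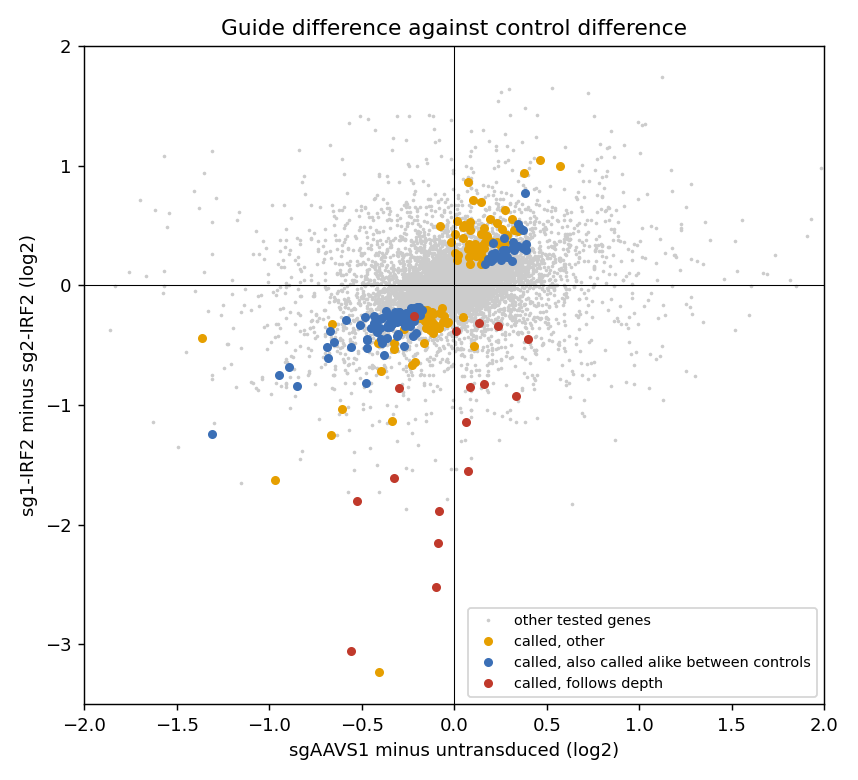
Log2 difference between sgAAVS1 and untransduced cells (horizontal) against that between sg1-IRF2 and sg2-IRF2 (vertical), 1 point per tested gene, coloured by class (11 genes, none of them called, lie outside the axes). Genes that followed the depth of knockdown, in red, reach far down near 0 on the horizontal axis, while genes called alike between the controls, in blue, lie along the diagonal.

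Genes lower with sg1-IRF2 that did not follow the depth had a median of -0.30 between the guides and -0.27 between the controls, and those higher had 0.35 and 0.19. Against the mean of the controls, sg1-IRF2 stood at -0.14 and sg2-IRF2 at 0.16 for the lower genes, and at 0.18 and -0.13 for the higher genes. These genes were chosen by the guide difference. Most genes also called with the same sign in both guides against the controls had gone to the depth class. That the guides, which share these controls, lay on either side of them is therefore largely given by that choice. The 17 depth genes had a median of 0.01 between the controls. The guide difference less the control difference was tested as well, a comparison chosen after the data had been seen. It was called in 19 genes of all tested (888 had an unadjusted p under 0.05). Of the 17 depth genes 4 were called, MT1X (-1.28, adjusted p = 0.00296), IRF2 (-1.80, adjusted p = 0.00784), DTX3L (-0.98, adjusted p = 0.00784) and TAP2 (-0.85, adjusted p = 0.00831), and 16 had an unadjusted p under 0.05. SLC30A1 gave -0.04. Of the 214 others 1 was called, PNCK (0.93, adjusted p = 9.89e-05), and 56 had an unadjusted p under 0.05. All group means in these comparisons come from 1 fit and 2 libraries per group. The labels give no batch, so the part of a batch in these results was not tested.

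Genes of hypoxia and glycolysis were lower with sg1-IRF2 without following the depth. Of 40 tested members 14 were called lower with sg1-IRF2 and 0 higher, 38 were below 0, and the median was -0.16. Of all tested genes 0.989% were called lower and 0.586% higher, and 49.9% were below 0. Between the controls 9 were lower with sgAAVS1 and 0 higher (2.36% and 2.06% of all tested genes), and 6 were called in both. With both guides against both controls 0 were lower and 1 was higher, VEGFA (0.20, adjusted p = 0.0237). The median of the 40 genes relative to each gene's mean was 0.01 and 0.03 in the untransduced libraries, -0.02 and -0.13 under sgAAVS1, -0.04 and -0.09 under sg1-IRF2, and 0.08 and 0.12 under sg2-IRF2. The sg2-IRF2 libraries were the highest pair, and sg1-IRF2 libraries lay within the range of sgAAVS1.

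NDRG1, a stress-induced gene that is a widely used mark of hypoxia, shows the pattern. Its value was 6.88 and 6.87 in the untransduced libraries, 6.07 and 6.32 under sgAAVS1, 6.22 and 6.19 under sg1-IRF2, and 6.82 and 6.79 under sg2-IRF2. Untransduced and sg2-IRF2 libraries formed a high set and sgAAVS1 and sg1-IRF2 libraries a low set. The guides differed by -0.60 ± 0.07 (adjusted p = 0.000104) and the controls by -0.68 (adjusted p = 3.62e-06). EGLN3, a prolyl hydroxylase that marks HIF for degradation and is itself a HIF target, gave -0.35 between the guides and -0.36 between the controls. BNIP3, a receptor for the removal of mitochondria, gave -0.33 and -0.25, and the histone demethylase gene KDM3A -0.28 and -0.26. The neuronal enolase gene ENO2 gave -0.31 and -0.26, and MXI1, an antagonist of MYC, -0.29 and -0.31.

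HK2, the hexokinase that starts glycolysis, stood at 7.63 and 7.70 in the untransduced libraries, 7.55 and 7.52 under sgAAVS1, 7.47 and 7.48 under sg1-IRF2, and 7.82 and 7.87 under sg2-IRF2. Here sg2-IRF2 was above all other libraries, by 0.25 over the controls (adjusted p = 0.00162), and sg1-IRF2 was lower than sg2-IRF2 by -0.37 ± 0.05 (adjusted p = 0.000235), while the controls differed by -0.13 (adjusted p = 0.112). PDK1, the kinase that keeps pyruvate out of mitochondria, gave -0.31 between the guides (adjusted p = 0.0013) and -0.04 between the controls (adjusted p = 0.741). PFKFB4, which makes the activator of phosphofructokinase, gave -0.31 and -0.06. For HK2, PDK1 and PFKFB4 the guide difference less the control difference was -0.24, -0.27 and -0.25, none of them called (adjusted p = 0.366, 0.213 and 0.527).

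ADM, the vasodilator peptide adrenomedullin, had the largest difference of the list, -1.63 ± 0.31 (adjusted p = 0.00944). It had 9 and 15 reads under sg1-IRF2, 39 and 35 under sg2-IRF2, 10 and 19 under sgAAVS1 and 23 and 36 in the untransduced libraries, and the read ratio between the guides was 2.98 (counting interval 1.86 to 4.94). CA9, carbonic anhydrase 9, gave -0.53 ± 0.12. The other called members were the lipid droplet gene HILPDA (-0.36), the glucose transporter gene SLC2A3 (-0.22) and the collagen prolyl hydroxylase gene P4HA1 (-0.21). VEGFA, the endothelial growth factor (-0.21, adjusted p = 0.122), and PGK1, phosphoglycerate kinase (-0.14, adjusted p = 0.207), were not called, though both were without either sgAAVS1 library. GBE1, the glycogen branching enzyme, is on no list. It fell with sg1-IRF2 alone, with 5.97 and 5.82 for sg1-IRF2 and 6.27 to 6.48 in all other libraries (-0.48 ± 0.06 between the guides, adjusted p = 0.000349).

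The 14 lower calls became 12 without either untransduced library, 19 and 20 without sgAAVS1 replicate 1 or 2, 8 and 6 without sg1-IRF2 replicate 1 or 2, and 7 and 2 without sg2-IRF2 replicate 1 or 2. As deposited, without the alignment, 12 were lower and 1 higher, beside 93 lower and 1859 higher over all tested genes. NDRG1, HK2 and GBE1 kept their call without each library in turn, and PDK1 lost it without sg2-IRF2 replicate 2 (adjusted p = 0.0543). ADM lost it without sg1-IRF2 replicate 1 or either sg2-IRF2 library, and the other called members kept it in 2 to 6 of the 8 fits. The hypoxia core, ACGTG or GCGTG on either strand, was in 8 of 11 matched promoters of called members, 72.7% against 63.5% of tested promoters, so no promoter of this group is printed.

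**Figure D4:**
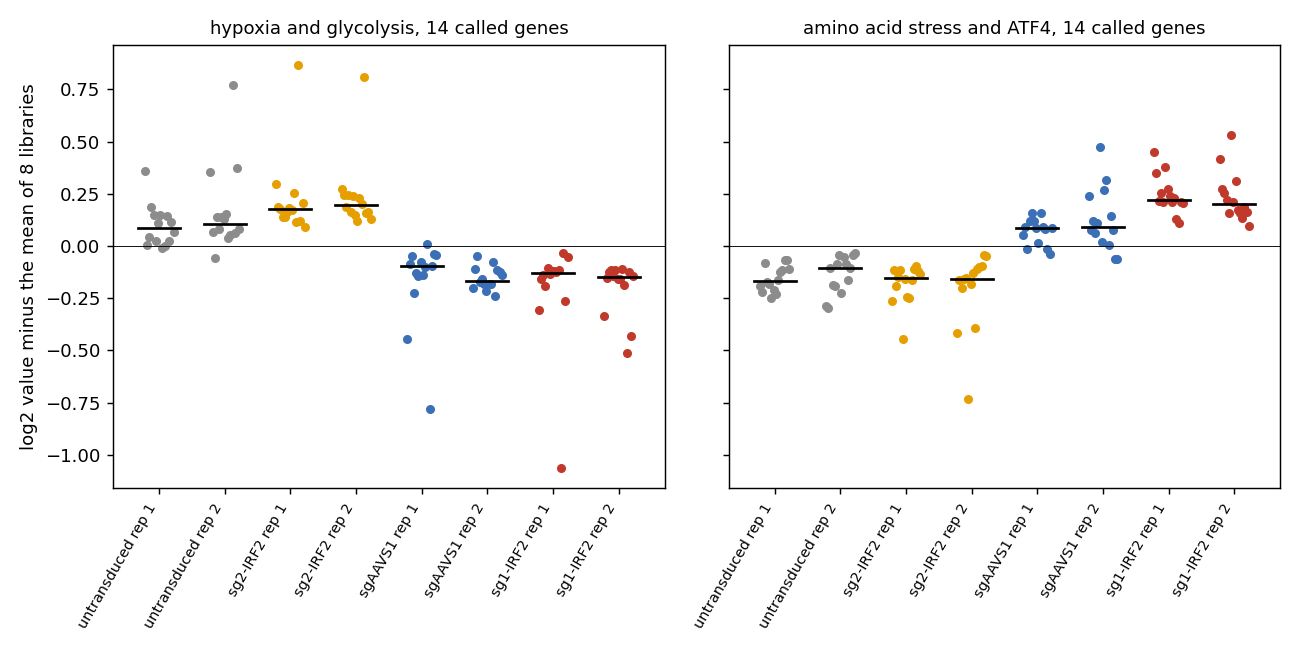
Aligned log2 value minus each gene's mean over the 8 libraries, for the 14 called genes of hypoxia and glycolysis (left) and the 14 of amino acid stress and ATF4 (right), 1 point per gene and 1 bar for the median of each library. Medians of untransduced and sg2-IRF2 libraries lie on 1 side of those of sg1-IRF2; the genes were chosen by the difference between the guides, so the contrast of red and yellow points is given by that choice.

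Genes of amino acid stress and ATF4 showed the opposite sign. Of 42 tested members 14 were called higher with sg1-IRF2 and 0 lower, 37 were above 0, and the median was 0.16. Of all 14665 tested genes 0.586% were called higher and 0.989% lower, and 7343 were above 0. Between the controls 7 were higher with sgAAVS1 and 2 lower (2.06% and 2.36% of all tested genes), and 7 were called in both comparisons with the same sign. With both guides against both controls 1 was higher and 1 lower. The median of the 42 genes relative to each gene's mean was -0.07 and -0.05 in the untransduced libraries, 0.09 and -0.03 under sgAAVS1, 0.13 and 0.05 under sg1-IRF2, and -0.08 and -0.04 under sg2-IRF2. The sg1-IRF2 pair lay above the untransduced and sg2-IRF2 pairs, and the sgAAVS1 libraries differed from each other. CHAC1, the glutathione-degrading enzyme induced by ATF4, is a member whose promoter holds the amino acid response element, searched as TGATGNAA on both strands and marked in capitals.
CHAC1 (chr15:40953236-40953295, plus strand): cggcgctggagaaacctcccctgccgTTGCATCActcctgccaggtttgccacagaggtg

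The element was in 2 of 12 matched promoters of called members, CHAC1 and SLC7A1, against 1.65% of tested promoters. CHAC1 stood at 3.78 and 3.94 in the untransduced libraries, 4.15 and 4.50 under sgAAVS1, 4.41 and 4.56 under sg1-IRF2, and 3.58 and 3.30 under sg2-IRF2. It was higher with sg1-IRF2 by 1.05 ± 0.15, which is 2.07-fold (adjusted p = 0.000548). CHAC1 was the 1 gene called higher that passed 2-fold. Between the controls it differed by 0.46 (adjusted p = 0.0786).

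Of the called members 5 encode amino acid transporters. SLC6A9, a glycine transporter, stood at 4.87 and 4.78 in the untransduced libraries, 5.12 and 5.30 under sgAAVS1, 5.51 and 5.48 under sg1-IRF2, and 4.80 and 4.65 under sg2-IRF2. The guides differed by 0.77 ± 0.09 (adjusted p = 0.000174) and the controls by 0.38 (adjusted p = 0.0202). SLC1A4, a neutral amino acid transporter, gave 0.46 and 0.37, and SLC7A5, the light chain of the large neutral amino acid transporter, 0.32 and 0.32. SLC7A1, a transporter of cationic amino acids, gave 0.24 and 0.25. SLC7A11, the cystine-glutamate exchanger, gave 0.24 (adjusted p = 0.0122) and 0.12 (adjusted p = 0.192). SLC6A9 overlaps CCDC24 and SLC7A11 overlaps SLC7A11-AS1, each on the opposite strand.

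Called enzymes of amino acid and folate metabolism were higher as well. PSAT1, which makes phosphoserine, stood at 6.41 and 6.40 in the untransduced libraries, 6.70 and 6.64 under sgAAVS1, 6.84 and 6.80 under sg1-IRF2, and 6.43 and 6.42 under sg2-IRF2. The sg2-IRF2 libraries lay next to the untransduced ones, and the guides differed by 0.39 ± 0.05 (adjusted p = 0.000349). PHGDH, the enzyme before PSAT1, gave 0.33, ALDH1L2, a mitochondrial folate enzyme, 0.43, PCK2, a mitochondrial phosphoenolpyruvate carboxykinase, 0.41, and CTH, which makes cysteine, 0.27. The regulators ATF5, a relative of ATF4 (0.45), TRIB3, a pseudokinase (0.24), and STC2, a secreted glycoprotein (0.51), were also higher. ATF5 was above the controls with sg1-IRF2 (0.40) and at -0.05 under sg2-IRF2, and it overlaps NUP62 on the opposite strand. ASNS, asparagine synthetase, gave 0.15 (interval 0.03 to 0.27, adjusted p = 0.25) and the ATF4 transcript itself 0.09 (interval -0.04 to 0.22, adjusted p = 0.552). ASNS was called without either sgAAVS1 library. As deposited, without the alignment, 33 of the 42 were called higher, with ASNS and ATF4 among them.

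Without 1 library the 14 higher calls were 12 without either untransduced library, 21 without either sgAAVS1 library, 10 without either sg1-IRF2 library, and 8 and 9 without sg2-IRF2 replicate 1 or 2. SLC6A9, ATF5, ALDH1L2, PSAT1, SLC7A5, CHAC1 and PCK2 stayed called in all 8 fits, and the other called members in 2 to 7. Of the 52 named genes that did not follow the depth, 21 stayed called in all 8, as did 5 of the 17 that did.

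Beyond these lists, the lower genes called alike between the controls were led by CAPN5, a calpain protease. It stood at 5.77 and 5.76 in the untransduced libraries, 4.84 and 4.98 under sgAAVS1, 4.65 and 4.92 under sg1-IRF2, and 5.67 and 5.57 under sg2-IRF2. The groups paired off as for NDRG1, with -0.84 ± 0.09 between the guides (adjusted p = 0.000104) and -0.85 between the controls. The others were CCSAP, a spindle protein (-0.39 and -0.41), TMEM116, a membrane protein (-0.46 and -0.47), CREBRF, a regulator of the stress factor CREB3 (-0.47 and -0.65), POFUT2, a protein O-fucosyltransferase (-0.39 and -0.21), DNAH8, a dynein heavy chain (-0.43 and -0.22), and the transcript RP11-463O12.5 (-0.51 and -0.27). Higher genes of this class outside the lists were FMNL3, a formin (0.35 and 0.21), and FAM83H, a keratin-organizing protein (0.30 and 0.39).

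In none of the classes were 100 genes, 44 lower and 56 higher with sg1-IRF2. Of the lower ones LAMC1, a laminin chain, had 2 and 1 reads under sg1-IRF2 and 17 and 11 under sg2-IRF2, a read ratio of 9.02 (counting interval 2.79 to 46.4, adjusted p = 0.00237). It had 8 to 16 reads in the controls, so sg1-IRF2 alone was low. FCGR2B, an inhibitory Fc receptor (-0.67 ± 0.09), and FUT11, a fucosyltransferase (-0.40 ± 0.06), were highest with sg2-IRF2. FCGR2B stood at 5.89 and 5.80 under sg2-IRF2 and between 5.09 and 5.57 elsewhere. Of the higher ones COLGALT2, a collagen galactosyltransferase, gave 0.41 ± 0.05, and G0S2, an inhibitor of fat breakdown, 0.93 ± 0.14. For COLGALT2 and G0S2, sgAAVS1 lay between untransduced cells and sg1-IRF2. LAMC1 lost its call without sg2-IRF2 replicate 1 and G0S2 without sg2-IRF2 replicate 2.

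Each of the remaining lists with a call held 1 or 2 called genes, a larger share than the 1.58% called over all tested genes. These lists are small and are given here because they held a call. DNAJB9, an endoplasmic reticulum chaperone, was 1 of 23 genes of the unfolded protein response (-0.26), DUSP1, a phosphatase of MAP kinases, 1 of 23 immediate early genes (-0.33), and CXCL8, the chemokine interleukin-8, 1 of 16 NF-kB and inflammatory genes (-1.03 ± 0.19). CDKN1C, an inhibitor of cyclin-dependent kinases (-0.33), and PMAIP1, the pro-apoptotic protein NOXA (-0.26), were 2 of 18 cell cycle inhibitors and apoptosis genes. SLC7A11 was the 1 called gene of 19 on the NRF2 list, and COL1A1 that of the adherent line list. DNAJB9, DUSP1 and PMAIP1 kept their call in 2 of the 8 fits without 1 library, CDKN1C in 5 and CXCL8 in 6.

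For 19 of the 30 lists no member was called between the guides by limma. They cover heat shock (23 tested), cholesterol synthesis (28), fatty acid synthesis (14), mitochondrially encoded genes (13), purine synthesis (17), other interferon regulatory factors (8), JAK-STAT (18), nucleic acid sensing (11), pyroptosis (11) and globins (10). They also cover haem synthesis and iron (18), erythroid (26), megakaryocyte (6), myeloid (7) and lymphoid genes (2), DNA replication (34), KRAB corepressors (14), ribosomal proteins (82) and histones (53). Of their 395 tested members 22 lower and 21 higher had an unadjusted p under 0.05, and voom called 2, both of haem synthesis and iron. The median differences of these lists ran from -0.03 (ribosomal proteins, 65 of 82 below 0) to 0.14 (nucleic acid sensing, 8 of 11 above 0). Those of the erythroid and KRAB corepressor lists were 0.04 and 0.02. All 13 mitochondrially encoded genes and 47 of 53 histone genes lay above 0, as did 7343 of all 14665 tested genes.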

How the data were processed

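Libraries were rRNA-depleted RNA made with a directional kit, per the labels. cutadapt, Bowtie2 and hg38 are named in the submitters' processing notes. Counting tool, strand setting and annotation: not given in the sources used here. Values deposited by the authors are log2 of reads scaled by 1 factor for each library, with genes without reads at the value of 0.9 read. Whole reads were recovered (100% of values whole, tolerance 0.01 read) and used for depth, counting intervals and alternatives. For 167 genes the name is not unique.

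Library medians over the tested genes were aligned. Group means of all 8 libraries were fitted in limma 3.58.1 (R 4.3.3) with a mean-variance trend (4 residual and 14.9 prior degrees of freedom). Tests were two-sided with Benjamini-Hochberg adjustment over 14665 genes, and intervals are 95%. The fit was tested on simulated data. Errors are standard errors. Python 3.11.15, numpy 2.4.6, pandas 2.3.3, scipy 1.17.1 and matplotlib 3.10.9 did the rest.

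Genes were named by lowest p within each class and list, with libraries of the guides not overlapping, plus the best-known members of 5 lists. CYP4V2, FAM111A, GBE1, SLC30A1 and SCRT2 were named after their values were seen. The members and all 30 lists were chosen with earlier results of these data known, so no list is independent support. The difference of the differences was added after the data had been seen. Alternatives covered normalization, filters, trend, weights, voom, the replicate block and each library left out.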

Additional observations from a re-analysis of the deposited data

How the results depend on the processing

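The count of 231 genes between the guides became 1952 as deposited without aligned medians, 577 with no filter on low values, 586 with array weights, 689 with the 4 guide libraries alone, 4 without the mean-variance trend, and 19 for the difference of the differences. Without 1 library it ran from 36 to 703. The 17 depth genes became 27 with no filter, 2 without the trend, 7 with voom and 4 for the difference of the differences, and ran from 6 to 38 without 1 library. The 114 genes called alike between the controls became 337 as deposited, 191 with no filter and 0 without the trend in limma (698 at an unadjusted p under 0.05 in both), and ran from 16 to 285 without 1 library. The 18 IRF2-lowered genes became 2 without the trend and 9 with voom, and ran from 6 to 36. IRF2 missed the threshold without the trend (-1.88, adjusted p = 0.15) and ran from -2.29 to -1.48 without 1 library. The cause of these changes was not tested.

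No alternative fit of the guide difference reversed the sign of IRF2 or of a named gene. The difference of the differences is another quantity, in which some named genes, PNCK among them, had the opposite sign. Quantile normalization (287), a mean log2 of 2 or more (235), 1 read added (232) and voom (236) left the count of 231 within 1.5 times. The replicate block gave 262 genes, 20 depth genes and 121 alike between the controls. Correlations of same-numbered libraries ran from -0.08 to 0.22, the highest for sgAAVS1 with sg1-IRF2 and the rest below 0.1, so the numbers were not taken to pair all libraries. Where a guide had fewer than 10 reads in each library, as sg1-IRF2 in IFI6, MT1E and LAMC1, depth limits the size of a difference.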
